A study of Homo sapiens with 6 samples.

Results

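Mucin-type O-glycosylation starts in the Golgi, where GALNT enzymes link GalNAc to serine or threonine and so form the Tn antigen. C1GALT1, the T-synthase, then adds galactose to make core 1, the T antigen, and it can fold only with the help of C1GALT1C1, also called COSMC, its chaperone in the endoplasmic reticulum. The same GalNAc can instead receive GlcNAc from B3GNT6, which makes core 3. GCNT1, GCNT3 and GCNT4 add a GlcNAc branch that turns core 1 into core 2, and GCNT3, the mucin-type member of this family, can also build core 4. The stomach lining is rich in these mucin glycans, and exposed Tn and T antigens are well known from gastric tumours.

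These 6 genes were followed in AGS cells, an established line from a human gastric adenocarcinoma. One group of cells was transfected with the siRNA si-C1GALT1-3, which targets C1GALT1, and the other with si-control, a nontargeting siRNA. RNA was taken 48 h after transfection, with 3 samples per group and 1 one-colour Agilent array per sample. The genes were found through the RefSeq accession that the array gives for each probe. Of the 6 genes, 5 had 1 probe each among 58201 gene probes, and no probe matched GCNT4, which is not analysed here. Only 1 cell line and 1 siRNA against C1GALT1 are compared, and the labels do not say whether the 3 samples of a group came from separate cultures, so the p-values measure only the spread between these samples.

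Of the 60901 gene spots on an array, 66.2% to 72.7% exceeded the scanner software's limit for a signal well above background, and none was saturated. The array of si-control replicate 2 has a central rectangle of low signal, and its 9712 spots there, 15.9% of the gene spots, were set to missing. The GCNT1 and GCNT3 probes lie in this rectangle, so both have 2 si-control values. Samples with the same replicate number share a slide, and the groups took the same positions on every slide, so position and treatment cannot be told apart. The epithelial markers EPCAM, KRT8, KRT18, KRT19 and CLDN4 were well above background on every array used, and none of their probes passed the test below. Of the markers of other cell types, PTPRC, CD3E and COL1A1 each had a probe well above background on every array used, and PECAM1 had one on 1 of 3 arrays per group. By the threshold given below, 2 dimmer PTPRC probes of 5 were called higher after si-C1GALT1-3, while the 2 bright ones had log2 fold changes of -0.33 and -0.38 and were not called, and HBB, of red cells, was called lower (log2 fold change -1.63 ± 0.34, SE). The part of these probes in the results below was not tested.

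C1GALT1 was lower in all 3 si-C1GALT1-3 samples than in any si-control sample. Its normalized log2 signal was 12.22, 13.03 and 12.62 in si-control replicates 1, 2 and 3, and 11.76, 11.98 and 11.13 in si-C1GALT1-3 replicates 1, 2 and 3. The groups did not overlap, although the lowest si-control value and the highest si-C1GALT1-3 value were only a small step apart. Groups that did not overlap and were lower after si-C1GALT1-3 were found for 10.2% of the 18826 genes with values on all 6 arrays. The mean was 12.62 ± 0.40 (SD, n = 3) in si-control and 11.62 ± 0.44 (SD, n = 3) in si-C1GALT1-3. C1GALT1 mRNA signal was therefore 50% of the si-control level, with a 95% confidence interval from 29.3% to 85.2%. In RNA from whole cultures, less transcript per cell and fewer cells with the transcript cannot be told apart.

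The size of the difference varied from slide to slide. In log2 units, si-C1GALT1-3 minus si-control was -0.47 for replicate 1, -1.05 for replicate 2 and -1.49 for replicate 3. The shared direction was already present before normalization, with processed signals of 5813, 7767 and 5074 in si-control and 4010, 4630 and 1879 in si-C1GALT1-3.

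The log2 fold change of C1GALT1 was -1.00 ± 0.31 (SE), with an unadjusted limma p of 0.0193 and a Benjamini-Hochberg adjusted p of 0.265 over 58195 probes. A gene was called changed at an unadjusted p under 0.01 and at least 2-fold, the threshold of the study's volcano plot, and C1GALT1 did not pass it. The exact permutation test over the 6 samples gave p = 0.1, the smallest value that 3 against 3 allows. When probes not well above background on all arrays of a group were left out before the fit, the unadjusted limma p became 0.00975 (adjusted p 0.150) and C1GALT1 passed.

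**Figure D1:**
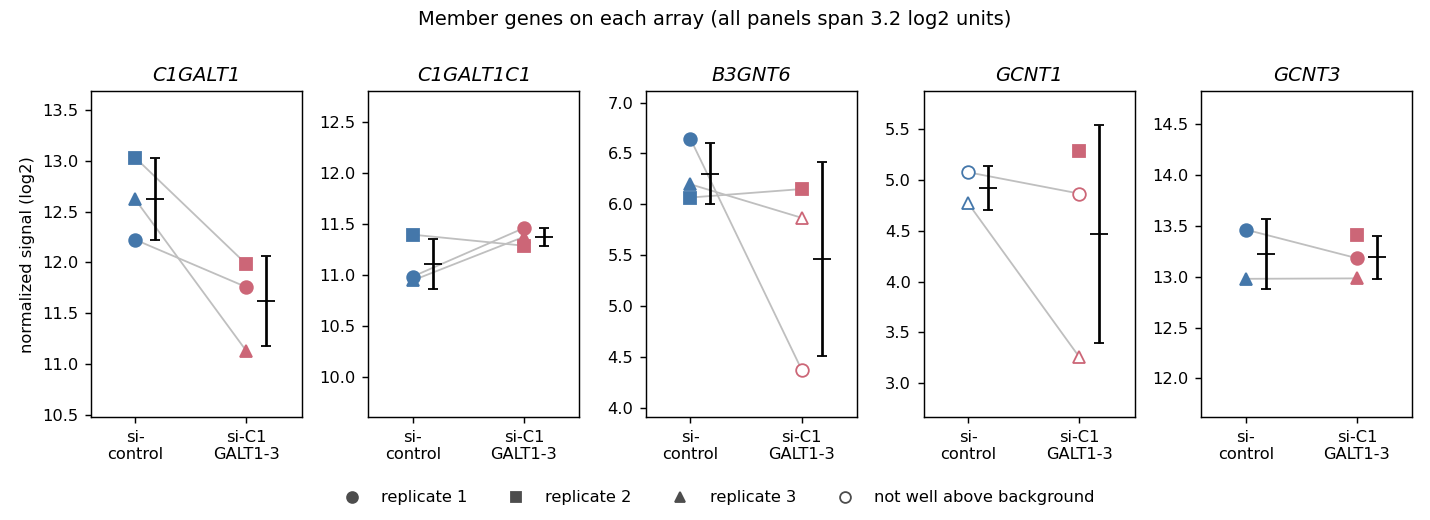
Normalized log2 signal of the 5 measured genes in each si-control (blue) and si-C1GALT1-3 (red) sample, with grey lines joining samples of 1 slide and black bars giving mean ± SD. Every panel spans the same number of log2 units but starts at its own level, since levels of different probes are not comparable. C1GALT1 is lower after si-C1GALT1-3 on all 3 slides, the groups overlap for the other 4 genes, and open symbols mark spots not well above background.

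C1GALT1C1, the chaperone without which C1GALT1 is not active, was not lower alongside it. Its normalized log2 signal was 10.98, 11.39 and 10.95 in si-control replicates 1, 2 and 3, and 11.46, 11.29 and 11.37 in si-C1GALT1-3. The groups overlapped, because si-control replicate 2 was higher than 2 of the si-C1GALT1-3 samples, and the remaining si-control samples were the lowest of all. Means were 11.11 ± 0.25 and 11.37 ± 0.087 (SD, n = 3 each), a log2 fold change of 0.27 ± 0.17 (SE) with a limma adjusted p of 0.558. The 95% interval of the fold change ran from 89.6% to 161% of the si-control level, so a fall of the size estimated for C1GALT1 lies outside it.

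The ratio of the C1GALT1 signal to the C1GALT1C1 signal within each array was compared between groups, a comparison chosen after the values were seen. This log2 ratio carries the brightness of both probes and is meaningful only as a difference between groups. It lay between 1.24 and 1.67 in si-control and between -0.24 and 0.70 in si-C1GALT1-3, and the ranges did not overlap. The difference was -1.27, with an exact permutation p of 0.1, the smallest possible, and 0.4 after Benjamini-Hochberg adjustment over the 4 genes set against C1GALT1, of which GCNT1 is left out here for its dim spots. The corresponding differences were -0.16 against B3GNT6 (exact p = 0.9) and -0.77 against GCNT3 (exact p = 0.2, the smallest possible with 2 si-control values). The B3GNT6 spot was well above background in only 1 of 3 si-C1GALT1-3 samples, so the difference against B3GNT6 rests partly on dim spots.

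B3GNT6, the core 3 synthase that competes with C1GALT1 for the Tn antigen, had a weak signal. It was 6.64, 6.07 and 6.20 on the log2 scale in si-control replicates 1, 2 and 3, and 4.38, 6.15 and 5.87 in si-C1GALT1-3. A single low sample, si-C1GALT1-3 replicate 1, stood apart, and the other 2 lay within or just under the si-control range. The spot was well above background in 3 of 3 si-control samples and in 1 of 3 si-C1GALT1-3 samples. The log2 fold change was -0.84 ± 0.50 (SE), with a limma adjusted p of 0.523, and it was -0.29 without si-C1GALT1-3 replicate 1.

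The core 2 branching enzymes were measured on fewer spots. GCNT3 was bright on every array used for it, at 13.46 and 12.98 in si-control replicates 1 and 3. In si-C1GALT1-3 replicates 1, 2 and 3 it was at 13.18, 13.40 and 12.98. All si-C1GALT1-3 values fell inside or at the edge of the si-control range. The mean log2 fold change was -0.03 ± 0.24 (SE; limma adjusted p = 0.985), which corresponds to 97.9% of the si-control level with a 95% interval from 63.7% to 150%. The value rests on leaving out the rectangle: the masked GCNT3 spot had a processed signal of 108, where the other 5 arrays gave 6518 to 14469. With that spot kept, the fold change was 1.96 ± 1.70 (SE) in the opposite direction.

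GCNT1, the broadly expressed core 2 enzyme, was close to the limit of detection. Its normalized log2 signal was 5.07 and 4.77 in si-control replicates 1 and 3, and 4.86, 5.28 and 3.26 in si-C1GALT1-3 replicates 1, 2 and 3. The spot was well above background in 1 si-C1GALT1-3 sample and in neither si-control sample used, so its fitted differences are not measured sizes. Its limma adjusted p was 0.828.

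By the threshold above, 0 of the 5 measured genes were called, where 3.41% of 22437 genes were called across the array, each by its probe with the highest mean signal. Counted by probe, 2.64% of 58195 were called, 1.65% higher and 0.991% lower. At an unadjusted limma p under 0.05 the count was 1 of 5, C1GALT1, beside 16.6% of all genes. The same comparison without limma's moderation of the variances also called 0 of 5.

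**Figure D2:**
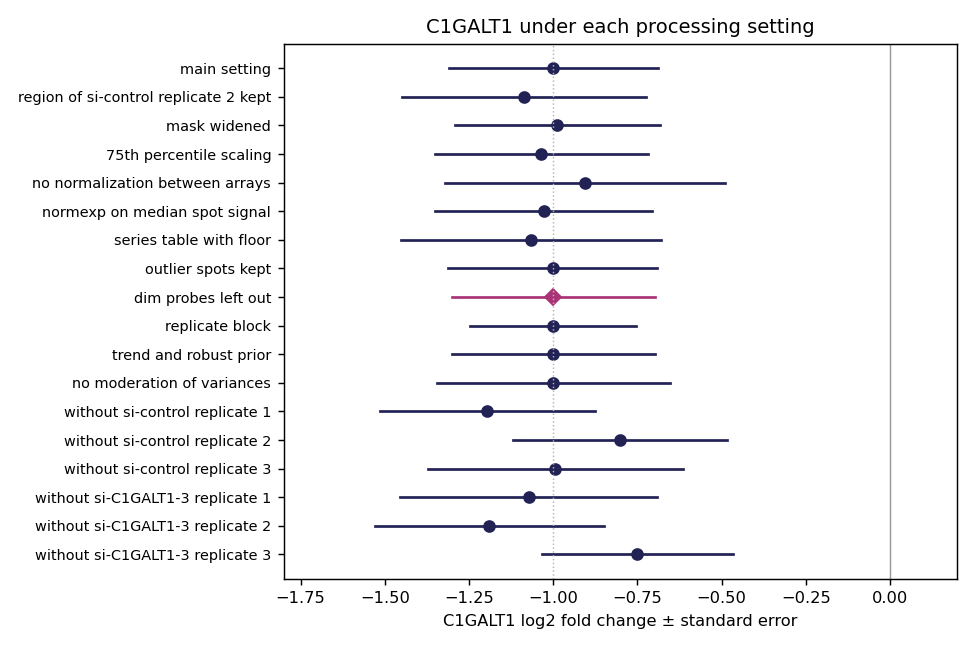
Log2 fold change of C1GALT1 (si-C1GALT1-3 against si-control) ± standard error under the reported setting and each alternative, with a dotted line at 2-fold lower. The estimates run from -1.20 to -0.75, and the magenta diamond, with dim probes left out, is the only setting that passed p under 0.01 and 2-fold.

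The other genes of mucin-type O-glycan synthesis were taken from a list of 36 genes, of which 35 had a probe. B4GALT5 was the only one called, and it was lower. Lower calls made up 1.33% and higher calls 2.08% of all genes, beside 1 of 35 and 0 of 35 here. Fitted fold changes were positive for 20 of the 35 genes and negative for 15, with a median of 0.10 on the log2 scale beside 0.019 over all genes. At an unadjusted p under 0.05 there were 6 of 35, namely B4GALT5, B4GALT1, GALNT4, GALNT7, GALNT8 and GALNT9, a share close to the 16.6% of all genes.

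B4GALT5 is a galactosyltransferase placed here among the extension enzymes and best known for making lactosylceramide. Its normalized log2 signal was 13.38, 13.80 and 13.45 in si-control replicates 1, 2 and 3, and 12.30, 12.68 and 11.95 in si-C1GALT1-3. Every si-C1GALT1-3 sample lay well below every si-control sample, and 10.2% of genes with values on all 6 arrays had lower groups without overlap. The log2 fold change was -1.23 ± 0.24 (SE), with an unadjusted limma p of 0.00226 and an adjusted p of 0.137. The call was lost without normalization between arrays, where the unadjusted limma p was 0.0162, and without si-C1GALT1-3 replicate 1, where it came to 0.010 and missed the threshold narrowly. The fold change stayed at -1.17 and -1.23 in these fits. The other 4 extension enzymes had positive fold changes, the highest being 0.56 ± 0.34 (SE) for B3GNT3, which lengthens core 1 with GlcNAc (limma adjusted p = 0.534), and it was 0.24 without si-control replicate 3.

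Of the 20 genes of the GALNT family, which start the chain, none was called. Their fold changes were positive for 9 genes and negative for 11, the median was -0.11, and 4 genes were not well above background on any array. GALNT4 had the highest fold change among those well above background on all arrays of a group. Its log2 signal was 6.75, 7.35 and 7.23 in si-control and 8.14, 7.83 and 8.30 in si-C1GALT1-3, so that the groups did not overlap, as for 13.1% of all genes in this direction. GALNT4 thus differed by 0.98 ± 0.22 on the log2 scale (SE; limma adjusted p = 0.172), with an unadjusted p of 0.00518, just under 2-fold, and 4 alternatives called it.

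GALNT9 had the lowest fold change among the family members well above background on all arrays of a group. Its brighter probe read 12.96, 12.59 and 12.51 in si-control and 11.96, 11.87 and 12.14 in si-C1GALT1-3, a log2 fold change of -0.70 ± 0.17 (SE; limma adjusted p = 0.199). A second GALNT9 probe, for another transcript, gave 0.35 ± 0.35 (SE), so the probes differed in direction. This probe was far dimmer, with means of 6.03 in si-control and 6.37 in si-C1GALT1-3, and its groups overlapped. It was well above background on 2 of 3 si-control arrays. GALNT8, named after its values were seen, stood well above background on 0 of 3 si-control arrays and on 2 of 3 si-C1GALT1-3 arrays. With si-control raised to the dimmest signal counted as well above background, the si-C1GALT1-3 mean was 1.03-fold above it. That mean includes 1 array not well above background, so it gives no lower limit for a rise. The limma adjusted p of the fitted GALNT8 difference was 0.257. GALNT8 passed the threshold in 4 alternatives. With the replicate number as a block it was one of them, and the count of the list rose from 1 to 2. Without normalization between arrays GALNT8 was the 1 gene of the list called, and it was higher, while B4GALT5 was not called.

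**Figure D3:**
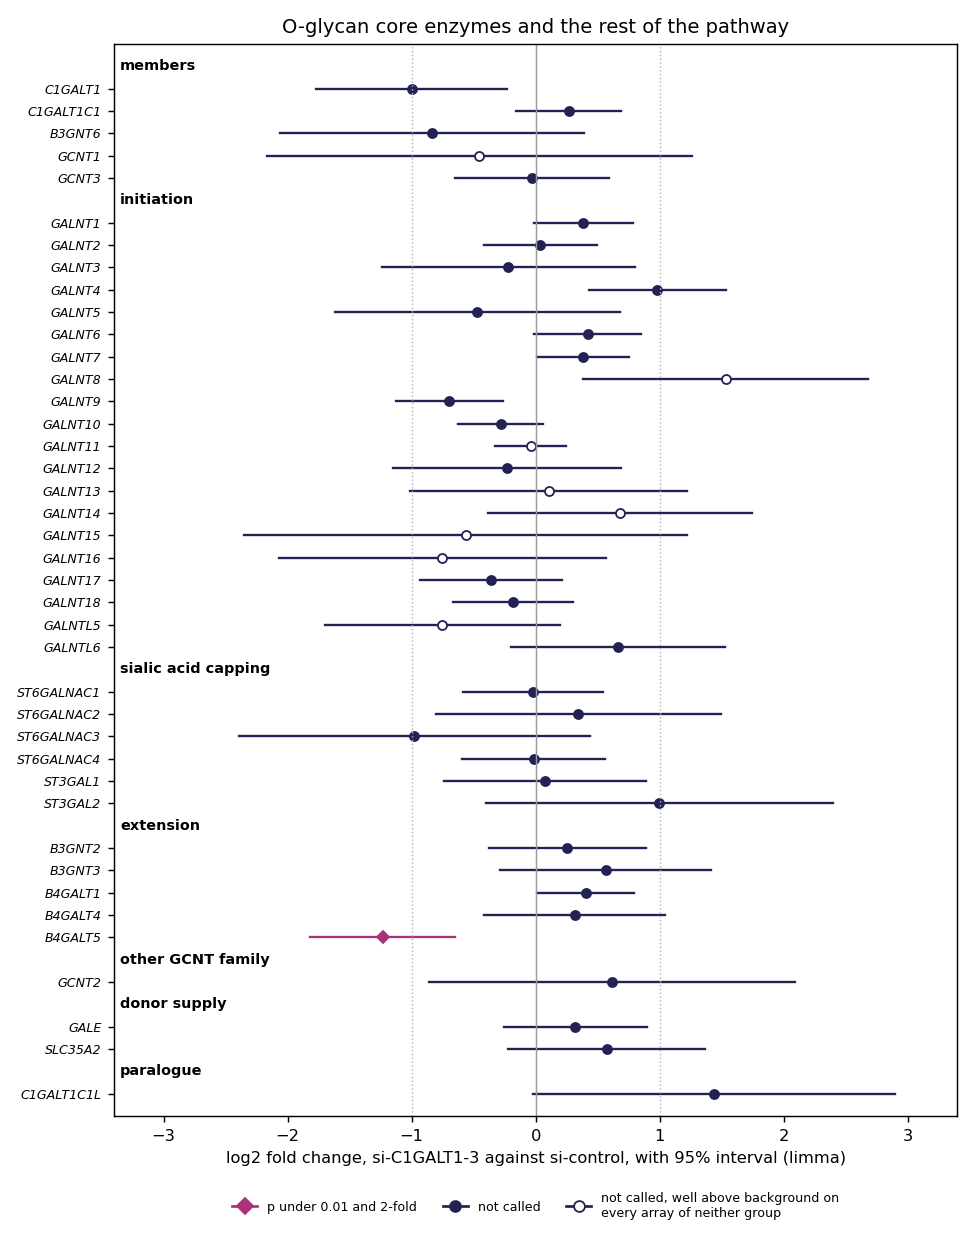
Log2 fold change with 95% interval (limma) of the 5 measured genes, shown as members, and of 35 further O-glycan genes by role, each by its probe with the highest mean signal. Dotted lines mark 2-fold. B4GALT5, at -1.23, is the only gene past the threshold, and C1GALT1 sits on the 2-fold line with an interval that ends at -0.23.

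Among the 6 sialyltransferases that cap O-glycans, 3 fold changes were positive and 3 negative, and none was called. ST6GALNAC3, which sialylates GalNAc, had the lowest, at -0.98 ± 0.57 (SE; limma adjusted p = 0.515) by its brighter probe. That value was -0.53 without si-control replicate 3 and -1.50 without si-control replicate 1. Its second probe gave -1.51 ± 0.38 (SE; limma adjusted p = 0.196) and passed the threshold, so both probes pointed down and only the dimmer one was called. ST3GAL2, which sialylates core 1 galactose, had the highest, at 1.00 ± 0.53 (SE; limma adjusted p = 0.494) with 2 si-control values, and it was 0.52 without si-control replicate 3. Without si-control replicate 1, ST3GAL2 was at 1.47. Leaving out either si-control replicate left ST3GAL2 with only 1 si-control value.

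The remaining genes were close to the members in function and none was called. C1GALT1C1L, a relative of the COSMC gene, read 4.50, 6.40 and 6.68 in si-control and 7.41, 7.35 and 7.14 in si-C1GALT1-3. All si-C1GALT1-3 samples were above all si-control samples, of which the first was the lowest by far. The same lack of overlap in this direction was found for 13.1% of genes with values on all 6 arrays. C1GALT1C1L thus differed by 1.44 ± 0.59 log2 units (SE; limma adjusted p = 0.369), with 2 of 3 si-control spots well above background, and by 0.76 without si-control replicate 1. GCNT2, the I-branching enzyme of the GCNT family, gave 0.61 ± 0.60 (SE; limma adjusted p = 0.705). This value ran from 0.048 without si-control replicate 3 to 1.26 without si-control replicate 2. The GCNT2 probe was well above background on 2 of 3 si-control arrays, and a second GCNT2 probe on 0 of 3 arrays of either group. SLC35A2, the UDP-galactose transporter that supplies C1GALT1 with its donor, gave 0.57 ± 0.32 (SE; limma adjusted p = 0.498) by its brightest probe, and 0.33 without si-control replicate 1 or without si-C1GALT1-3 replicate 3. Its other probes gave 0.72 and -0.16.

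The genes most like C1GALT1 were sought among 18417 probes of 14561 genes that were well above background and unmasked on all 6 arrays. Likeness was Pearson's r of the normalized log2 signal over the 6 arrays, which share slides, scaling and the 2 treatment groups, and it is given as a description. The 5 closest were ELOVL7, a fatty acid elongase (r = 0.996), GK, glycerol kinase (0.995), SKA2, of the spindle and kinetochore (0.995), KYAT3, a kynurenine aminotransferase (0.995), and LRRC8E, a subunit of the volume-regulated anion channel (0.994). No p is given, since these 5 were picked as the highest of many coefficients over few arrays.

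ELOVL7 also had the size of the C1GALT1 difference. Its normalized log2 signal was 8.42, 9.22 and 8.74 in si-control replicates 1, 2 and 3, and 7.80, 8.15 and 7.33 in si-C1GALT1-3. In both genes, replicate 2 was the highest sample of each group. The log2 fold change of ELOVL7 was -1.03 ± 0.30 (SE; limma adjusted p = 0.246), while those of the other 4 ran from -0.79 for KYAT3 to -0.27 for SKA2, and none of the 5 was called. Among the O-glycan genes that met the same limits, r with C1GALT1 was highest for GALNT10 (0.966) and B4GALT5 (0.961) and lowest for B4GALT1 (-0.89), and it was -0.34 for C1GALT1C1.

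**Figure D4:**
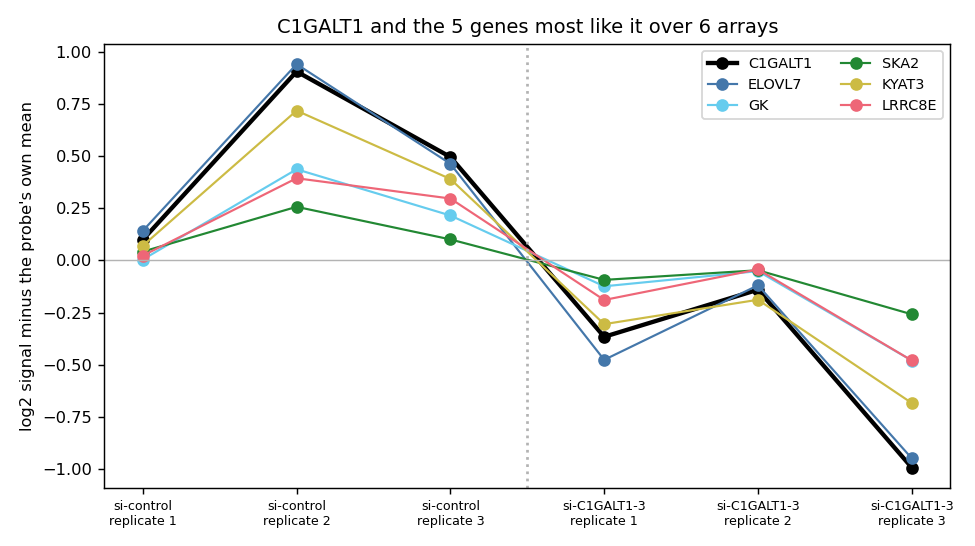
Normalized log2 signal of C1GALT1 (black) and of the 5 genes most like it, each minus its own mean over the 6 arrays. All 6 lines peak at si-control replicate 2 and are lowest at si-C1GALT1-3 replicate 3, and ELOVL7 follows C1GALT1 in size as well as shape.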

How the data were processed

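The authors deposited the scanner output of 6 one-colour arrays (Agilent Feature Extraction, version 10.5.1.1 in the submitters' processing notes). Its unit is fluorescence intensity per spot, corrected for background by that software and not normalized between arrays. A deposited series table holds background-subtracted intensity of the same spots. From these intensities, log2 of the processed signal was taken. Control spots were left out. Outlier spots (100 to 424 per array), and rows 113 to 288 by columns 59 to 115 of si-control replicate 2, were set to missing. Arrays were quantile normalized, spots averaged per probe, and groups compared with limma version 3.58.1 in R version 4.3.3, checked on simulated data. Adjusted p-values are Benjamini-Hochberg over all probes. Accessions were named through RefSeq for GRCh38.p14. Coordinates are left out because the deposited files use a different build.

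Members and lists were chosen with earlier results of these data known. The rule for named genes took the members, called pathway genes, the largest rise and fall of each pathway sublist among genes well above background on all arrays of a group, and the 5 genes most like C1GALT1. GALNT7, GALNT8, GALNT10, GALNTL5 and B4GALT1 fall outside it and were named after their values were seen. Deviations from the group means correlated at 0.198, 0.215 and 0.329 between samples with the same replicate number, which share a slide, so the numbers were taken as pairs and blocking on the replicate was one of the alternatives, whose effects are given at the end.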

Additional observations from a re-analysis of the deposited data

How the results depend on the processing

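C1GALT1 kept its direction under all 17 alternatives run for it, at -1.20 to -0.75 on the log2 scale (p 0.00975 to 0.0609 and adjusted p 0.150 to 0.80). Leaving out dim probes, which fits and tests fewer probes, gave -1.00 ± 0.30 (SE) and called C1GALT1, so that 1 member was called. The call uses the unadjusted p, which does not depend on the number of tests. With the replicate number as a block, which uses the slide pairing, C1GALT1 was -1.00 ± 0.25 (SE; limma adjusted p = 0.230). The block changed no call of a member, but called 2 pathway genes, as did a wider mask, scaling to the 75th percentile and the series table. GCNT3 was 1.96 and the fitted value of GCNT1, which is too dim to be a measured size, 0.11 with the rectangle kept. Leaving out 1 sample at a time gave -1.20 to -0.75 for C1GALT1, 0.18 to 0.41 for C1GALT1C1, -1.18 to -0.29 for B3GNT6, -0.83 to 0.15 for GCNT1 and -0.27 to 0.21 for GCNT3. The highest fitted GCNT1 value, 0.15, came without si-C1GALT1-3 replicate 3, where GCNT3 was 0.074, and the highest GCNT3 value came without si-control replicate 1. The same alternatives gave 0 to 3 pathway genes, with 0 without si-C1GALT1-3 replicate 1, and 1126 to 1781 probes. The 3, without si-control replicate 3, were B4GALT5, GALNT8 and GALNTL5. GALNTL5 had no value for si-control replicate 2, so that fit compared it with 1 si-control value. Its spots were well above background on 0 arrays of either group, so its fitted value is not a measured size.

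Over all probes, 1538 were called, 920 with normexp background correction and 896 without moderation of the variances. The share of higher calls was 62.5%, against 72.6% without normalization and 40.2% with the rectangle kept. At an adjusted p under 0.05 there were 49 probes, against 429 with normexp and 543 without dim probes. The lowest limma adjusted p behind the 49 was 0.0499, just under the limit. The count was 0 with the block, with the rectangle kept, without normalization, with outlier spots kept and whenever 1 sample was left out. Scaling to the 75th percentile moved the median of all probes to -0.11, where C1GALT1 was -1.04. GCNT1 gave no value without dim probes, and each member has 1 probe, so no median over probes could be taken. A planned protein comparison was not run. The signal over background limits B3GNT6 and GCNT1. The causes of these shifts were not tested.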
